A study of Arabidopsis thaliana with 12 samples.

Results

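Wounded Arabidopsis thaliana rosettes in the dark were compared with intact rosettes in the light, so that both treatments changed at once. The 6 arrays of these 2 groups, of 12 arrays in all, carried 3 dark wounded and 3 light intact samples, matched by the number of the replicate experiment. Of 22746 probe sets that are no controls, 13567 were tested, those with a log2 value of 4 or more on 3 or more of the 12 arrays. The other 6 arrays, 3 of dark intact and 3 of light wounded rosettes, were used to divide the joint change between its 2 sources.

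The labels give a day of 10 h light and 14 h dark for all samples. Plants were acclimatised for 30 min at 22 °C, per the treatment labels. Dark wounded rosettes stood in darkness from the start of this period, were crushed on the leaves with a metal haemostat under a dim safelight, and were collected 60 min later. Dark intact rosettes had the same darkness and no crushing. Light wounded rosettes were crushed and kept under photosynthetically active light of 250 µmol per square metre and second, and light intact rosettes had that light and no crushing. Every array carried RNA pooled from 15 to 17 whole rosettes, so crushed and uncrushed tissue of a plant were measured together. The treatment text of dark wounded replicate 2 is only an abbreviation, so its title and source name gave its group and collection time, and its acclimatisation and temperature are not given in the labels used here. No ecotype is given in the labels used here.

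A crushed leaf sets off calcium signals, jasmonate synthesis and a burst of early transcription factors, many of which also answer touch and other stress. Loss of light withdraws the signals of the photoreceptors and, as photosynthesis stops, the supply of sugar. Leaf cells then take up autophagy and the breakdown of amino acids, and the SnRK1 kinase changes many transcripts.

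The results use several quantities, all on the log2 scale of the deposited values. The joint change is dark wounded minus light intact. The wounding main effect is the mean wounded minus intact difference over dark and light, and the darkness main effect is the mean dark minus light difference over wounded and intact rosettes. The joint change is exactly the sum of these 2 main effects. The departure from additivity is the wound effect in the dark minus that in the light, which equals the joint change minus the sum of the 2 changes seen when each treatment was given alone. Calls rest on limma with the replicate experiment as a block and a two-sided Benjamini-Hochberg adjusted p under 0.05 over all 13567 probe sets, and values after ± are standard errors unless SD is stated.

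The arrays were alike in brightness. Their medians lay between 5.40 and 5.60, and 13107 to 13258 probe sets per array reached log2 4. The Affymetrix probe set for 25S ribosomal RNA read 7.57 ± 0.77 in dark wounded, 9.62 ± 0.95 in dark intact, 7.36 ± 1.06 in light wounded and 7.27 ± 0.33 in light intact samples (SD, n = 3 each), and its part in the results was not tested beyond a fit that includes it. Dark intact replicate 1 stood apart from the other dark intact arrays for many stress genes named below. Its part in a main effect is given where it matters. It does not enter the estimate of the joint change, but it enters the shared spread behind the standard error and call. Of the housekeeping list, neither tested gene was called for the joint change, with PEX4 at -0.05 ± 0.09 and AT4G34270 at 0.16 ± 0.10. Both readable markers of other tissues, of 11 listed, were not called either. PYK10, a beta-glucosidase of roots, stood at 8.66, 6.98 and 8.34 in dark wounded samples, against 9.39, 8.26 and 7.77 in light intact samples. FMA, a transcription factor of guard cell formation, stood at 5.04, 5.04 and 4.99 in dark wounded samples, against 5.16, 5.36 and 5.08 in light intact samples. None of these 4 genes was called for the wounding main effect. For the darkness main effect AT4G34270 was called higher and PYK10 lower. Those darkness calls were lost in 16 and 13 of 22 alternative fits. In whole rosettes, fewer cells of a type and less RNA per cell cannot be told apart.

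The joint change was broad. Of the tested probe sets, 2658 (19.6%) were higher and 4088 (30.1%) lower in dark wounded than in light intact rosettes. Those higher moved further: 1486 were higher by at least 2-fold and 239 by at least 8-fold, whereas 1136 were lower by at least 2-fold and 40 by at least 8-fold. The 3 dark wounded arrays did not overlap the 3 light intact arrays for 6467 probe sets (47.7%). The median over all probe sets was -0.13, so the typical transcript was slightly lower on this scale. Without the replicate block, 2049 were called higher and 2493 lower. The count ranged from 4521 to 6822 when single arrays or whole experiments were left out.

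The 12 largest rises and 12 largest falls were taken only from called probe sets whose 2 groups did not overlap. Their lack of overlap is therefore no added evidence. Several of the largest rises were of loci that read near the floor of the arrays in light intact rosettes. AT1G22810, on the list of rapid stress transcription factors, stood at 9.90, 9.92 and 10.04 in dark wounded samples, against 2.42, 2.16 and 3.13 in light intact samples. The dark wounded samples agreed within 0.07 (SD). Its joint change was 7.38 ± 0.74 (limma adjusted p = 5.21e-05), or at least 62.0-fold when the light intact mean is raised to the filter level of log2 4. The same bound is used wherever a fold is given as at least. In light wounded samples this transcript already averaged 9.74, and its darkness main effect was not called (1.31 ± 0.53, limma adjusted p = 0.0624). Darkness alone raised it in intact rosettes by 2.40 ± 0.74 (limma adjusted p = 0.0287), from light intact values below log2 4. Dark intact samples stood at 2.43, 6.31 and 6.17. In wounded rosettes the dark minus light difference was 0.22 ± 0.74 with no call.

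AT3G55840 stood at 10.13, 10.71 and 10.82 in dark wounded samples, against 3.56, 2.88 and 4.72 in light intact samples, a change of 6.84 ± 0.55 and at least 94.1-fold (limma adjusted p = 1.88e-05). AT5G12340 had 10.45, 10.85 and 10.74 in dark wounded samples, against 4.31, 4.02 and 3.62 in light intact samples, a change of 6.70 ± 0.63 and at least 103-fold (limma adjusted p = 3.78e-05). AT5G39580 read 8.17, 8.22 and 9.48 in dark wounded samples, against 1.99, 1.98 and 1.97 in light intact samples, a change of 6.64 ± 0.67 and at least 24.6-fold (limma adjusted p = 5.17e-05). In all 3 cases every dark wounded array lay above every light intact array, which the choice of these genes required. These 3 differed in where the rise came from. For AT5G39580 the dark intact samples averaged 5.81 and the light wounded samples 3.51, which is below the brightness threshold, so the share of each treatment in its rise is not given. Wounding gave the larger part for AT3G55840 (4.10 ± 0.39, against 2.73 ± 0.39 for darkness) and AT5G12340 (4.64 ± 0.45, against 2.07 ± 0.45), whose light intact means of 3.72 and 3.98 also lay below that threshold.

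AT4G27654 and DTX50, a carrier of the MATE family, rose with wounding in either light condition. AT4G27654 had 9.49, 9.43 and 8.99 in dark wounded samples, against 3.20, 3.34 and 3.28 in light intact samples, a joint change of 6.03 ± 0.20 (at least 39.5-fold). DTX50, AT5G52050, had 9.91, 8.97 and 8.56 in dark wounded samples, against 4.04, 2.77 and 2.77 in light intact samples, a joint change of 5.95 ± 0.37 (at least 35.4-fold). The darkness main effects were -0.28 ± 0.14 and -0.22 ± 0.27, with no call for either. WRKY22, a transcription factor of immune signalling, drew on both treatments. It stood at 9.54, 9.93 and 9.98 in dark wounded samples, against 4.71, 4.12 and 4.47 in light intact samples, which is 41.8-fold higher (5.39 ± 0.35, limma adjusted p = 6.84e-06). The remaining 5 of the 12 largest rises were AT1G15010 (6.03), AT1G02660 (5.69), AT1G69890 (5.68), AT3G20340 (5.50) and AT2G31945 (5.21).

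**Figure D1:**
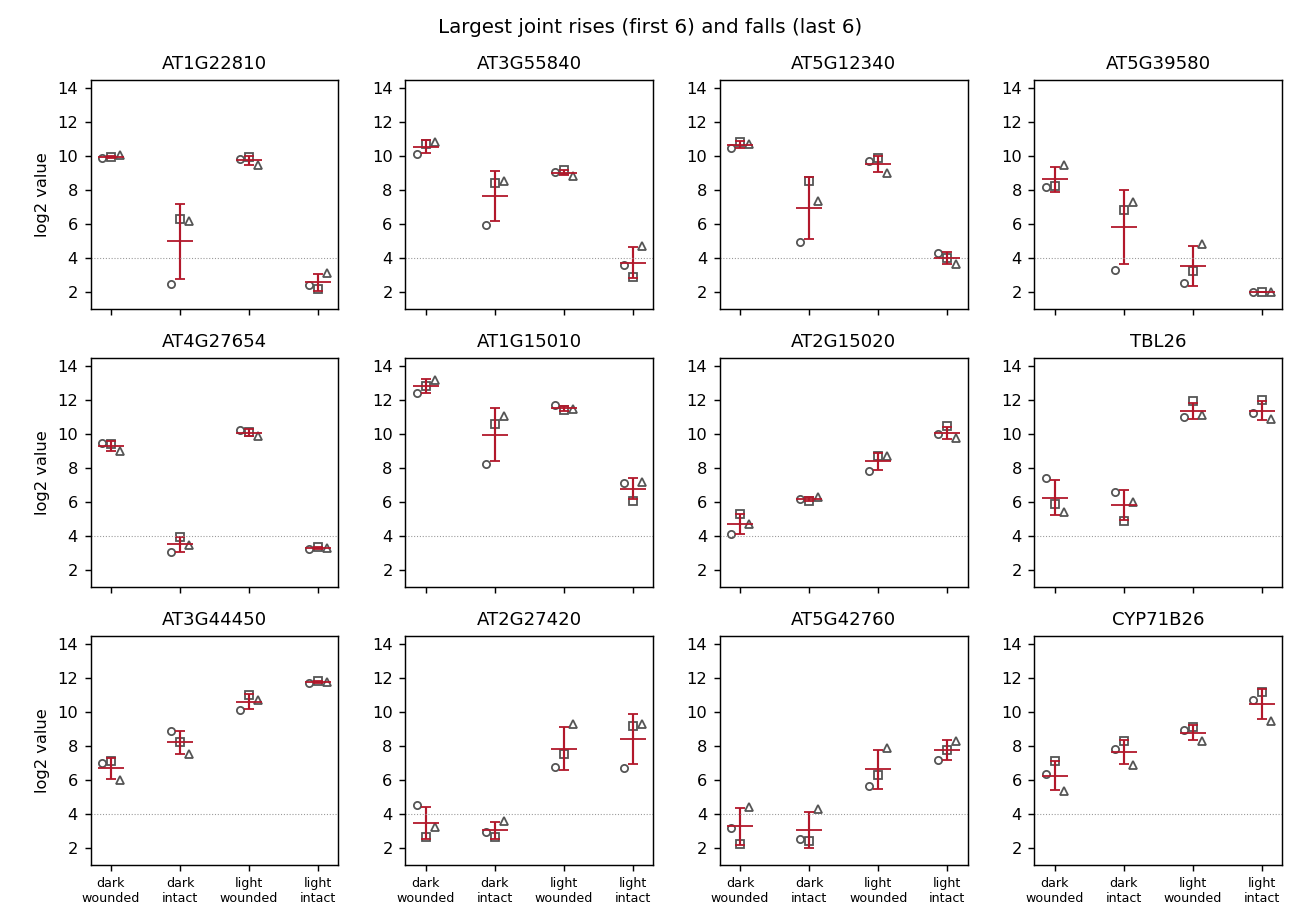
Log2 values of 6 of the largest joint rises and 6 of the largest joint falls on all 12 arrays. Circles, squares and triangles are replicate experiments 1, 2 and 3, red bars are group means with SD (n = 3), and the dotted line is the brightness threshold of log2 4. The rising genes are at 8.17 or above in dark wounded samples, and AT1G22810 shows dark intact replicate 1 (2.43) apart from replicates 2 and 3 (6.31 and 6.17).

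The largest falls took their size mainly from darkness. AT2G15020 stood at 4.08, 5.30 and 4.72 in dark wounded samples, against 9.98, 10.46 and 9.76 in light intact samples. The groups lay far apart, and the level was 41.3-fold lower (-5.37 ± 0.25, limma adjusted p = 2.26e-06), of which -3.81 ± 0.18 was darkness and -1.56 ± 0.18 wounding. TBL26, of a family that acetylates cell wall polysaccharides, had 7.43, 5.88 and 5.43 in dark wounded samples, against 11.23, 12.02 and 10.88 in light intact samples. It was 35.0-fold lower (-5.13 ± 0.53, limma adjusted p = 6.16e-05), and its wounding main effect was 0.20 ± 0.38 (limma adjusted p = 0.696). AT3G44450, on the list of light signalling, had 7.01, 7.10 and 5.97 in dark wounded samples, against 11.73, 11.85 and 11.78 in light intact samples. Its fall of 34.2-fold (-5.09 ± 0.33) again joined a larger darkness part (-3.75 ± 0.23) and a smaller wounding part (-1.34 ± 0.23).

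CYP71B26, a cytochrome P450, followed the same course at 6.34, 7.09 and 5.35 in dark wounded samples, against 10.74, 11.17 and 9.47 in light intact samples (18.4-fold lower, -4.20 ± 0.17). Its 3 experiments differed in level but each showed the fall. The other 8 of the 12 largest falls were AT2G27420 (-4.94), AT5G42760 (-4.49), AT5G01790 (-4.20), AT2G44940 (-4.08), AT3G52740 (-3.91), AT3G15310 (-3.82), AT1G76240 (-3.71) and AT5G59350 (-3.69). All 24 of these genes kept their call for the joint change in every alternative fit.

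Over all joint calls, the largest rises and falls differed in make-up. Of 239 probe sets higher by at least 8-fold, 145 (60.7%) were raised by both treatments, 73 (30.5%) by wounding with no call for darkness, and 19 (7.95%) by darkness with no call for wounding. Darkness gave the larger share in 69 of them (28.9%). Of 40 probe sets lower by at least 8-fold, 27 (67.5%) were lowered by both, 12 (30%) by darkness with no call for wounding and 0 by wounding with no call for darkness. Darkness gave the larger share in 38 of these (95%). Over all sizes, darkness was the larger part in 54.6% of the 2658 joint rises and in 69.2% of the 4088 joint falls. These counts divide one measured change into its parts and carry no test of their own.

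Both main effects had many calls. Wounding raised 1906 probe sets (14%) and lowered 3000 (22.1%), and darkness raised 3178 (23.4%) and lowered 3772 (27.8%). Without the replicate block the wounding calls were 1473 higher and 1455 lower, so that the share of higher calls went to 50.3% in place of 38.9%. With the 25S reading as a covariate, 2831 probe sets were called for wounding and 3678 for darkness, against 4906 and 6950 without it. Without replicate experiment 1 or 2, 2968 or 2850 probe sets were called for wounding. Between them the treatments pushed 1740 probe sets the same way (12.8%) and 1235 opposite ways (9.1%).

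**Figure D2:**
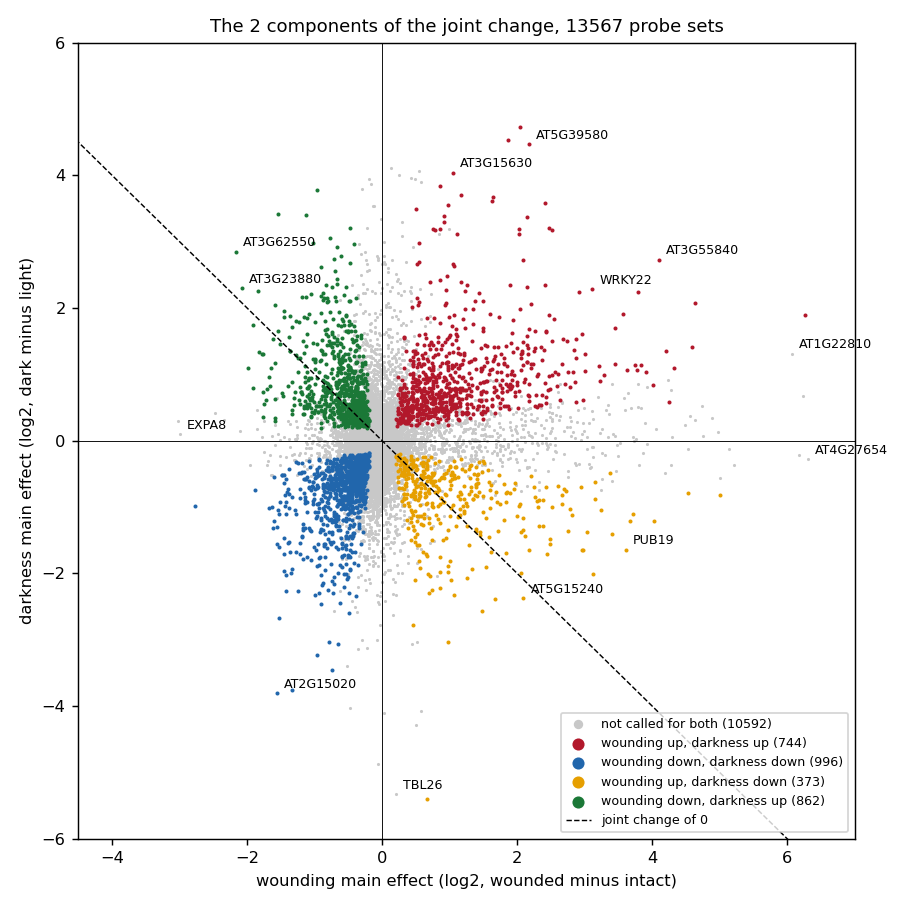
Wounding main effect (x axis, log2) against darkness main effect (y axis, log2) of the 13567 tested probe sets, with those called for both coloured by direction. On the dashed line the joint change is 0: the 744 probe sets raised by both and the 996 lowered by both lie away from it, and most of the 373 and 862 pushed opposite ways lie along it.

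Among same-direction probe sets, 744 were raised and 996 lowered by both, and all of them were called for the joint change in that direction, as the sum of 2 like-signed effects favours. The 744 had a median joint change of 1.80, made of median main effects of 0.93 for wounding and 0.77 for darkness, and 644 were higher by at least 2-fold. The 996 had a median joint change of -1.14, with median main effects of -0.47 for wounding and -0.60 for darkness. Without the replicate block 499 were raised and 435 lowered by both, and without dark intact replicate 1 there were 792 and 774. Those raised by both numbered 414 without experiment 2, and those lowered by both 524, 413 and 506 without experiments 1, 2 and 3.

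The named genes raised by both included AT3G55840, AT1G02660, AT1G69890, WRKY22, AT1G15010, AT5G39580, AT4G28085 and AT3G20340, the 8 whose smaller main effect was largest. AT1G69890 had 10.43, 10.73 and 10.66 in dark wounded samples, 8.07, 9.42 and 9.44 in dark intact, 8.20, 8.26 and 8.30 in light wounded, and 4.85, 4.59 and 5.35 in light intact samples. Each treatment alone lifted it clear of the light intact arrays, and the combination lay above both (wounding 2.47 ± 0.19, darkness 3.20 ± 0.19). For WRKY22 the dark intact samples read 6.88, 8.57 and 8.18 and the light wounded samples 8.83, 8.57 and 8.74, between the dark wounded and light intact levels given above. Its main effects were 3.11 ± 0.25 for wounding and 2.28 ± 0.25 for darkness. They were 2.85 and 2.53 without dark intact replicate 1, the lowest of the 3 dark intact samples. AT5G39580 showed the widest spread of this kind, with 3.30, 6.82 and 7.32 in dark intact samples. Its light intact and light wounded means both lay below the brightness threshold. The size of its main effects, and so its place among these 8, is therefore uncertain.

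The genes lowered by both included AT3G17640, AT2G15020, CYP71B26, AT3G01660, AGO7, AT5G67390, AT5G59350 and AT2G39920. AGO7, an Argonaute protein of the trans-acting small RNA pathway that shapes leaf development, had 3.35, 3.78 and 3.00 in dark wounded samples, 4.28, 4.49 and 4.28 in dark intact, 4.45, 4.29 and 4.33 in light wounded, and 6.69, 6.74 and 5.43 in light intact samples. Its fitted main effects were almost equal (-1.46 ± 0.17 for darkness and -1.45 ± 0.17 for wounding). All its dark wounded values lay below the brightness threshold, so the size of these effects is uncertain. The dark wounded level was at least 4.88-fold below the light intact one. AT3G01660 fell in a graded way above that threshold, with 4.35, 4.58 and 5.25 in dark wounded samples against 7.28, 8.31 and 7.98 in light intact samples. Its group means were 6.37 in dark intact and 6.45 in light wounded samples. For AT3G17640 all 9 arrays other than light intact lay between 2.16 and 2.56, below the brightness threshold, so its values can show no difference among those 3 groups.

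Since the joint change is the sum of the main effects, opposite signs make a small sum and equal signs a large one by construction, and the counts that follow are descriptions. Wounding raised and darkness lowered 373 probe sets, of which 102 were higher, 65 lower and 206 (55.2%) not called for the joint change. Wounding lowered and darkness raised 862, of which 214 were higher, 55 lower and 593 (68.8%) not called. Over both kinds, 799 of 1235 (64.7%) had no call for the joint change, and the median size of their joint change was 0.27. Over all 13567 tested probe sets 50.3% had no joint call, and the median size was 0.40. Without the replicate block these classes held 211 and 375 probe sets. The smaller class held 201 and 233 without experiments 1 and 2, and the larger 360, 398 and 551 without experiments 1, 2 and 3. A missed call here is no proof that the level was unaltered.

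HAT2, a homeodomain-leucine zipper factor of auxin and shade responses, came out level. It had 6.72, 6.80 and 6.23 in dark wounded samples and 6.76, 6.91 and 6.13 in light intact samples. Those 2 groups overlapped, while the dark intact samples (8.24, 7.99 and 7.34) lay above and the light wounded samples (5.25, 5.27 and 4.88) below them. Its main effects were -1.37 ± 0.09 for wounding and 1.36 ± 0.09 for darkness, and its joint change was -0.01 ± 0.12 (limma adjusted p = 0.95). AT3G11690 showed the same, with group means of 6.53 in both dark wounded and light intact samples, 7.78 in dark intact and 5.06 in light wounded samples.

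AT3G62550 moved furthest among the named genes of this class, by -2.17 ± 0.17 with wounding and 2.85 ± 0.17 with darkness. It had 9.37, 10.79 and 9.10 in dark wounded samples, 11.30, 12.28 and 10.96 in dark intact, 6.16, 6.69 and 6.62 in light wounded, and 8.77, 9.67 and 8.79 in light intact samples. Dark wounded and light intact arrays overlapped, and the remaining joint change of 0.68 ± 0.25 passed narrowly (limma adjusted p = 0.0447) and lost its call in 13 of 23 alternative fits (limma adjusted p up to 0.275). AT3G23880 and AT3G19850 had joint changes of 0.22 ± 0.20 and -0.16 ± 0.27 with no call, after wounding main effects of -2.08 and -1.91. The other named genes of this class were AT1G78450 (-0.08) and AT1G28260 (0.17), with no joint call, and AT1G21920. Its joint change of 0.40 ± 0.13 was called (limma adjusted p = 0.0245) and lost its call in 9 of 23 alternative fits (up to 0.358).

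Among genes raised by wounding and lowered by darkness, AT4G10390 had 9.76, 8.40 and 8.61 in dark wounded samples, 6.60, 5.77 and 5.84 in dark intact, 11.30, 11.59 and 10.74 in light wounded, and 8.37, 7.86 and 7.20 in light intact samples. Wounding outweighed darkness (3.13 ± 0.18 and -2.01 ± 0.18), and a joint rise of 1.12 ± 0.26 was left (limma adjusted p = 0.00586). PUB19, a U-box ubiquitin ligase of stress responses, had 9.70, 8.93 and 8.74 in dark wounded samples, against 7.11, 7.27 and 7.10 in light intact samples. Its dark intact samples spread over 3.30, 5.71 and 6.82, and its darkness main effect of -1.64 ± 0.49 was -1.07 without dark intact replicate 1. That call was lost in 6 of 22 alternative fits (limma adjusted p up to 0.114) and the call for its joint change (1.97 ± 0.70, limma adjusted p = 0.0409) in 11 of 23 (up to 0.171).

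4CL8, of the 4-coumarate-CoA ligase-like family, came out level, with a joint change of -0.06 ± 0.30 from main effects of 1.61 ± 0.21 and -1.67 ± 0.21. It stood at 5.57, 4.80 and 3.75 in dark wounded samples, against 6.32, 4.69 and 3.28 in light intact samples, and these overlapped. AT5G15240 (-0.28), AT1G51090 (0.54) and AT3G13650 (0.69) had no call for the joint change, while AT1G76640 (1.31) and AT5G14700 (1.01) did. The calls of those last 2 were lost in 5 and 13 of 23 alternative fits (limma adjusted p up to 0.18 and 0.169).

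**Figure D3:**
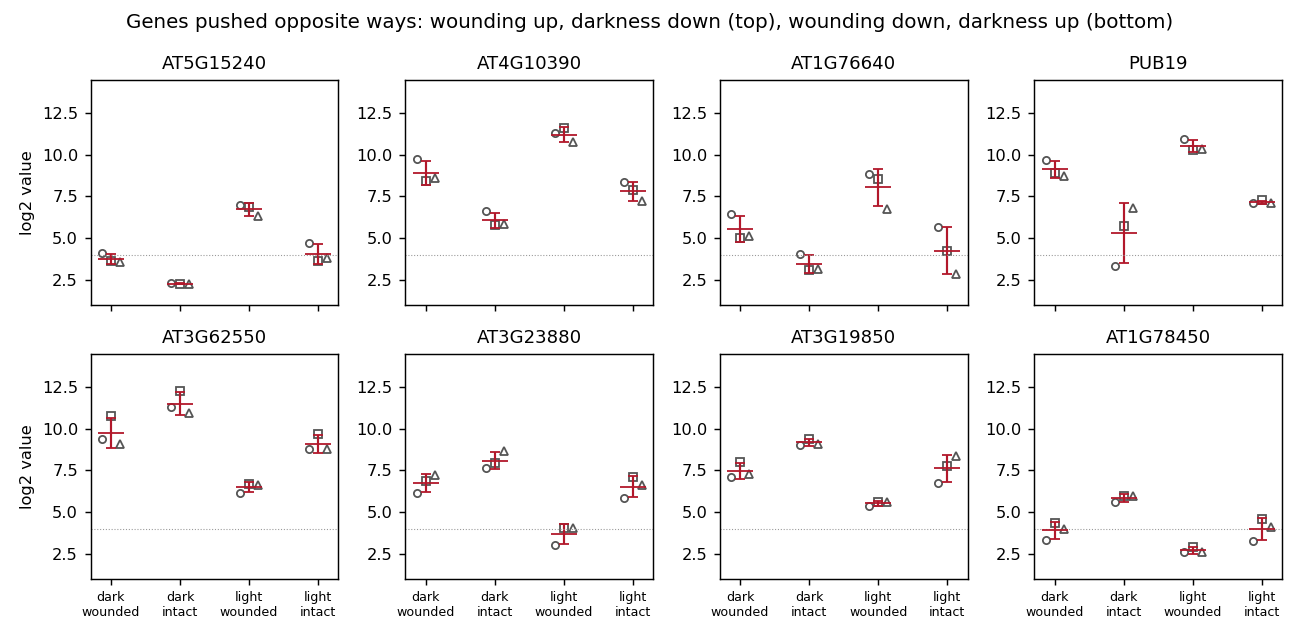
Log2 values on all 12 arrays of 4 genes raised by wounding and lowered by darkness (top) and 4 genes lowered by wounding and raised by darkness (bottom). Circles, squares and triangles are replicate experiments 1, 2 and 3, red bars are means with SD (n = 3), and the dotted line is log2 4. Dark intact and light wounded means lie on opposite sides of the dark wounded and light intact means. The last 2 lie near each other for AT3G23880 (6.75 and 6.52), while AT4G10390 and AT3G62550 keep a called joint rise.

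Single calls for a departure from additivity were rare. There were 5 of 13567 (0.0369%), with 1102 at an unadjusted p under 0.05, and between 0 (without any 1 of the 3 experiments) and 41 (without dark intact replicate 1) when arrays or experiments were left out. There were 28 without light intact replicate 3. The departures nevertheless leaned one way in the same-direction classes and in several others. Of the 744 probe sets raised by both, 599 (80.5%) had a departure below 0, with a median of -0.38. Their median joint change was 1.80, where the median sum of the single changes was 2.14. Of the 996 lowered by both, 835 (83.8%) had a departure above 0, with a median of 0.23, and their median joint change was -1.14 where the median sum was -1.38. The lean was not tested for a difference between classes. Of probe sets called for 1 treatment alone, 69.8% of those raised by wounding lay below 0 (median -0.19), while 75.3% of those lowered by wounding (median 0.12) and 79.7% of those lowered by darkness (median 0.16) lay above 0. Among all tested probe sets 60.8% lay above 0. The departure is a contrast orthogonal to both main effects in this balanced design. Its errors are uncorrelated with theirs only where the 4 groups spread alike. The part that choosing classes by main effects plays in the lean was not tested.

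In the 3 experiments taken singly, the median departure of probe sets raised by both was -0.12, -0.64 and -0.33, and of those lowered by both 0.16, 0.38 and 0.17. Experiment 1 gave the smallest lean in each class. Without dark intact replicate 1 the medians over these same probe sets were -0.49 and 0.29. Over the probe sets with a mean of at least log2 8 on the 12 arrays, a setting chosen after the data were seen, they were -0.45 (445 probe sets) and 0.16 (389). The median departure in the opposed classes was 0.03 and 0.07.

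**Figure D4:**
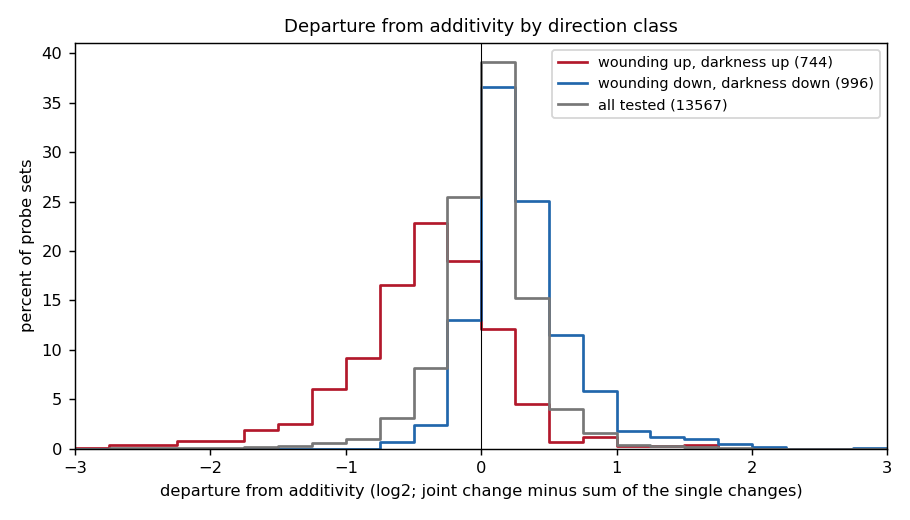
Departure from additivity (x axis, log2, in bins of 0.25) as a percent of the probe sets in each class (y axis). The 744 probe sets raised by both treatments lie mostly below 0 (median -0.38), the 996 lowered by both mostly above 0 (median 0.23), and all 13567 tested probe sets centre on 0.06.

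Of the named genes, 3 were called both for a departure and for the joint change. The first was EXPB1, a beta-expansin that loosens cell walls. It had 4.37, 4.00 and 4.02 in dark wounded samples, 4.50, 4.27 and 4.04 in dark intact, 4.77, 4.34 and 4.49 in light wounded, and 6.95, 6.51 and 6.17 in light intact samples. The means were 4.13 with both treatments, 4.27 with darkness alone and 4.54 with wounding alone, against 6.54 in light intact samples. Its joint change was -2.41 ± 0.12 and its departure 1.87 ± 0.17 (limma adjusted p = 0.00902), with calls lost in 10 of 22 alternative fits (limma adjusted p up to 0.502). All 9 arrays other than light intact lay between 4.00 and 4.77, close to the brightness threshold. AT5G38700 had 6.24, 6.72 and 6.69 in dark wounded samples, 2.81, 2.83 and 2.85 in dark intact, 8.09, 8.11 and 8.25 in light wounded, and 2.84, 2.80 and 2.78 in light intact samples. All 6 intact arrays lay below the brightness threshold, so both wound effects start from levels that are only bounded, and the gene passed the filter through its wounded samples. The wounded level was lower in the dark than in the light, and the fitted departure was -1.62 ± 0.18 (limma adjusted p = 0.0217). AT3G27540 had 8.32, 7.89 and 8.09 in dark wounded samples, 5.24, 5.14 and 5.50 in dark intact, 8.73, 8.21 and 8.30 in light wounded, and 7.24, 7.04 and 7.44 in light intact samples. Darkness lowered it in intact rosettes, while in wounded rosettes the dark minus light difference was -0.32 ± 0.14 with no call, and the joint change was a rise of 0.86 ± 0.14. Its departure was 1.63 ± 0.20 (limma adjusted p = 0.0364), and this call and that of AT5G38700 were lost in 17 and 15 of 22 alternative fits (limma adjusted p up to 0.796 and 0.53).

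Gene lists for the tissue and treatments were read next. Of 280 entries in 21 lists, 86 had a probe set with a single named gene and 81 were tested, of which 33 were higher, 21 lower and 27 not called for the joint change. That compares with 19.6% higher and 30.1% lower over all tested probe sets. For the wounding main effect those shares were 14% and 22.1%, and for the darkness main effect 23.4% and 27.8%. The lists hold genes chosen for wound, light and dark responses, with earlier results known, and their counts are descriptions.

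Calcium and touch genes were called higher, all but AT1G76640 without overlap of the dark wounded and light intact arrays. All 5 tested members rose in dark wounded rosettes, with a median joint change of 1.73 (-0.13 over all tested probe sets), and all 5 were raised by wounding. Over all tested probe sets, 19.6% were higher for the joint change and 14% for wounding. CML37, a calmodulin-like calcium sensor, had 9.48, 9.74 and 9.22 in dark wounded samples, against 4.96, 3.91 and 4.71 in light intact samples (4.96 ± 0.53, limma adjusted p = 7.02e-05). CML38, a close relative, had 12.95, 13.31 and 12.49 in dark wounded samples, against 8.84, 8.13 and 7.69 in light intact samples (4.70 ± 0.53). Neither overlapped. The call for their darkness main effects was absent for CML37 (0.32 ± 0.37) and lost in 13 of 22 alternative fits (limma adjusted p up to 0.306) for CML38 (1.06 ± 0.37). CML37 gained that call in 2 of 22 alternative fits. CML42 (1.73 ± 0.22) took more from darkness (0.98 ± 0.15) than from wounding (0.75 ± 0.15), and CML23 rose by 1.18 ± 0.22. AT1G76640 rose by 1.31 ± 0.38 with overlapping arrays, and darkness lowered it (-1.65 ± 0.27). Its joint call was lost in 5 of 23 alternative fits. Without the replicate block 4 of the 5 were called.

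All 4 tested rapid stress transcription factors rose, with a median joint change of 4.93, where 19.6% of all tested probe sets were higher. None was called for the darkness main effect with all arrays. That call was gained in 3 of 22 alternative fits for AT1G22810 (effect 0.68 to 1.94) and for STZ (0.30 to 1.04). AT3G53600 gained it in 2 (-0.63 to -0.02). Within intact rosettes darkness was called for AT1G22810 (2.40 ± 0.74). Among wounded rosettes AT3G53600 was lower in the dark (-0.88 ± 0.29, limma adjusted p = 0.0489). AT1G19210 had 8.65, 8.07 and 7.14 in dark wounded samples, against 3.01, 2.91 and 2.91 in light intact samples (5.01 ± 0.27, at least 15.5-fold). AT3G53600 rose by 4.86 ± 0.29 and the zinc finger repressor STZ by 3.26 ± 0.42. All 4 tested U-box ubiquitin ligases rose as well, though PUB19 (1.97 ± 0.70) lost its call in 11 of 23 alternative fits. PUB22, which acts with its relatives to damp immune signalling, had 9.30, 9.90 and 9.66 in dark wounded samples, against 5.02, 4.53 and 4.75 in light intact samples (28.9-fold, 4.85 ± 0.34). PUB23 rose by 4.07 ± 0.25 and PUB24 by 2.60 ± 0.30. These 3 were called for both treatments, with darkness main effects between 0.75 and 1.05. The darkness calls of PUB22 and PUB24 were lost in 4 and 3 of 22 alternative fits (limma adjusted p up to 0.198 and 0.145). In wounded rosettes the dark minus light difference was 0.22 for PUB22, 0.58 for PUB23 and 0.48 for PUB24, with no call. Of 3 WRKY factors of stress, WRKY22 and WRKY6 (2.62 ± 0.36) rose and WRKY53 stood at 0.69 ± 0.28 (limma adjusted p = 0.0669).

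The jasmonate genes that rose were called higher for wounding, and none was called higher for darkness with all arrays. OPCL1, which activates jasmonate precursors with coenzyme A, was the 1 gene tested of 14 listed for biosynthesis and had 12.07, 12.41 and 11.05 in dark wounded samples, against 10.98, 10.89 and 9.98 in light intact samples. Its joint rise of 1.23 ± 0.28 (limma adjusted p = 0.00488, lost without the replicate block) joined a wounding rise of 1.95 ± 0.19 and a darkness fall of -0.72 ± 0.19. In jasmonate turnover 3 of 4 tested members rose, led by AT2G38240 (2.96 ± 0.33) and AT5G05600 (2.39 ± 0.28), with JRG21 at 1.00 ± 0.33 and its call lost in 8 of 23 alternative fits (limma adjusted p up to 0.14). A darkness call was gained in 2 of 22 alternative fits by AT5G05600 (effect 0.17 to 0.65) and by JRG21 (-0.77 to -0.02). In intact rosettes darkness gave 0.91 ± 0.33 for AT2G38240 (limma adjusted p = 0.0541). A missing darkness call is thus no proof that darkness left these genes unaltered. JMT, the methyltransferase that makes methyl jasmonate, stood at -0.63 ± 0.28 with no call.

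Among signalling genes, the glutaredoxin GRX480 had 10.86, 11.10 and 11.12 in dark wounded samples, against 8.91, 7.56 and 7.40 in light intact samples (3.07 ± 0.51). Its rise came with wounding (3.26 ± 0.36), and its darkness main effect of -0.19 ± 0.36 was 0.41 without replicate experiment 1. MYC4, a transcription factor of jasmonate responses, went the other way. It had 6.46, 6.96 and 6.37 in dark wounded samples, against 8.80, 9.54 and 8.66 in light intact samples, and was 5.29-fold lower (-2.40 ± 0.12, limma adjusted p = 2.4e-06). Wounding (-1.08 ± 0.08) and darkness (-1.32 ± 0.08) each lowered it. Its relative MYC3 had a joint change of 0.00 ± 0.16.

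Darkness raised all 7 tested members of the dark and sugar starvation list, and 6 of 7 were higher for the joint change (median 2.59). Over all tested probe sets these shares were 23.4% and 19.6%. AT3G15630 had 11.71, 12.03 and 12.56 in dark wounded samples, against 6.26, 6.32 and 8.46 in light intact samples (33.9-fold, 5.08 ± 0.38). AT3G15450 had 13.59, 13.55 and 13.82 in dark wounded samples, against 9.16, 8.42 and 10.69 in light intact samples (4.23 ± 0.36). Light intact replicate 3 was the highest of its group for both, and no arrays overlapped. Wounding raised these 2 genes in the light, by 2.12 ± 0.38 and 2.32 ± 0.36, but was not called in the dark (-0.03 ± 0.38 and -0.10 ± 0.36, limma adjusted p = 0.974 and 0.886). The difference between dark and light was not called either (-2.15 ± 0.53 and -2.43 ± 0.51, limma adjusted p = 0.286 and 0.225). Darkness in intact rosettes gave 5.11 ± 0.38 and 4.33 ± 0.36, close to the joint changes.

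The other members drew on darkness alone or against a small wound effect. MCCA, a subunit of the methylcrotonyl-CoA carboxylase of leucine breakdown, had 9.66, 9.96 and 9.29 in dark wounded samples, against 6.86, 7.22 and 6.79 in light intact samples (2.68 ± 0.18). AKINBETA1, a regulatory subunit of SnRK1, rose by 2.59 ± 0.17, with a wounding main effect of -0.25 and no call. IVD, an early enzyme of leucine breakdown, rose by 1.21 ± 0.14 and MCCB, the partner of MCCA, by 0.58 ± 0.10, each from a larger darkness rise and a small wounding fall (-0.37 and -0.31). PPDK, pyruvate orthophosphate dikinase, was left at 0.10 ± 0.13. The 3 wounding falls of this list, in IVD, MCCB and PPDK, were lost without the replicate block.

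The 9 tested ATG8 genes, which encode the ubiquitin-like protein of autophagosome membranes, were mostly pushed opposite ways. Darkness raised 7 of 9 and wounding lowered 6 of 9, against 23.4% and 22.1% of all tested probe sets. For the joint change 3 of 9 were higher (median 0.10), against 19.6%. ATG8E had 11.03, 11.91 and 11.42 in dark wounded samples, against 8.66, 9.32 and 9.76 in light intact samples (4.62-fold, 2.21 ± 0.18). Its darkness rise of 2.68 ± 0.13 met a wounding fall of -0.47 ± 0.13. ATG8H rose by 1.35 ± 0.20 with no wounding call, and ATG8F by 0.53 ± 0.10 with overlapping arrays. APG8A (0.00), ATG8C (0.04) and ATG8D (0.14) had no joint call. Their darkness parts lay between 0.31 and 0.45, and their wounding parts between -0.31 and -0.29. The median wounding main effect over all tested probe sets was -0.11, and 0 of the 9 were called for wounding without the replicate block.

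The few tested genes of light signalling and the clock fell with darkness. Of 20 listed light signalling genes 3 were tested, namely AT3G44450, AT3G52740 and HYH, a bZIP factor related to HY5. All 3 were lower for the joint change and for darkness, against 30.1% and 27.8% of all tested probe sets. AT3G52740 had 5.18, 5.38 and 5.48 in dark wounded samples, against 8.94, 9.69 and 9.13 in light intact samples (15.0-fold lower, -3.91 ± 0.37). HYH had 7.14, 7.20 and 7.53 in dark wounded samples, against 8.15, 8.31 and 9.01 in light intact samples (-1.20 ± 0.26, limma adjusted p = 0.00396, lost without the replicate block). Neither overlapped. GI, the clock protein GIGANTEA and the 1 tested clock gene of 15 listed, had 5.83, 5.64 and 5.18 in dark wounded samples, against 7.53, 7.92 and 8.40 in light intact samples. It was 5.27-fold lower (-2.40 ± 0.25), with a wounding main effect of -0.07 ± 0.18.

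Nuclear photosynthesis genes had no joint call in any of 5 tested members, where 50.3% of all tested probe sets had none. RCA, Rubisco activase, stood at 15.13, 15.09 and 15.16 in dark wounded samples, against 15.22, 15.17 and 15.15 in light intact samples, near the highest value on any array (15.85). LHCB4.3, an antenna protein, had the largest value of the 5 (-0.44 ± 0.17, limma adjusted p = 0.0553). In chlorophyll biosynthesis PORB, a protochlorophyllide oxidoreductase, was the 1 of 3 with a call (-0.63 ± 0.23, limma adjusted p = 0.047). That call was lost in 14 of 23 alternative fits (limma adjusted p up to 0.307), while its wounding main effect of -1.06 ± 0.16 kept its call in all 22.

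All 6 tested cell wall genes were lower (median -2.66), against 30.1% of all tested probe sets, but by different routes. EXPA8, an alpha-expansin, had 4.51, 5.99 and 5.84 in dark wounded samples, against 7.69, 8.97 and 8.36 in light intact samples (7.46-fold lower, -2.90 ± 0.18). Its fall came with wounding (-3.00 ± 0.13), with 0.10 ± 0.13 for darkness. TBL26 and CSLA01, a glucomannan synthase of the cellulose synthase-like family, fell with darkness, and EXPB1 and EXPA4 (-1.14 ± 0.18) with both. CSLA01 had 4.33, 2.12 and 3.91 in dark wounded samples, against 6.03, 7.25 and 6.34 in light intact samples (at least 5.81-fold lower, -3.09 ± 0.67). EXPB3 fell by 0.76 on the log2 scale.

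Of 8 tested genes of sugar transport and starch, 4 were lower and 4 not called, against 30.1% and 50.3% of all tested probe sets. SWEET13, a sucrose exporter, had 4.13, 4.01 and 4.07 in dark wounded samples, against 5.61, 7.43 and 6.71 in light intact samples (5.71-fold lower, -2.51 ± 0.38). APL3, a large subunit of the ADP-glucose pyrophosphorylase that supplies starch synthesis, had 6.79, 7.06 and 5.52 in dark wounded samples, against 8.33, 9.27 and 7.98 in light intact samples (-2.07 ± 0.17). Neither overlapped. SWEET1 (-1.58 ± 0.19) and SWEET17 (-1.02 ± 0.13) were lower too. SWEET2 (-0.01), SWEET4 (0.53), SWEET11 (-0.33) and SWEET16 (0.52) were not called.

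Flavonoid, cold and auxin genes split by treatment. The flavonol glycosyltransferases UGT78D1 (-2.09 ± 0.19) and UGT78D2 (-1.58 ± 0.15) fell with darkness, and DFR, dihydroflavonol reductase, stood at -0.32 ± 0.21. In the cold and dehydration list the chloroplast proteins COR15A (-1.35 ± 0.13) and COR15B (-1.81 ± 0.25) fell with darkness. The dehydrins LTI30 (2.27 ± 0.30) and COR47 (1.33 ± 0.14) rose, LTI30 with wounding alone (2.17 ± 0.21). LTI30 had 12.11, 12.23 and 12.22 in dark wounded samples, against 10.11, 9.22 and 10.44 in light intact samples, with no overlap. Both tested auxin-conjugating enzymes rose. GH3.3 was raised by wounding (0.99 ± 0.19) and darkness (1.33 ± 0.19) for a joint 2.31 ± 0.27, and WES1 was lowered by wounding (-0.83 ± 0.21) and raised by darkness (2.35 ± 0.21) for a joint 1.52 ± 0.29. In the glucosinolate and tryptophan list, BCAT4, an aminotransferase of methionine chain elongation, had a joint change of -0.70 ± 0.23 that lost its call in 10 of 23 alternative fits (limma adjusted p up to 0.37). AT2G04400 balanced a wounding rise of 0.87 against a darkness fall of -0.86.

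**Figure D5:**
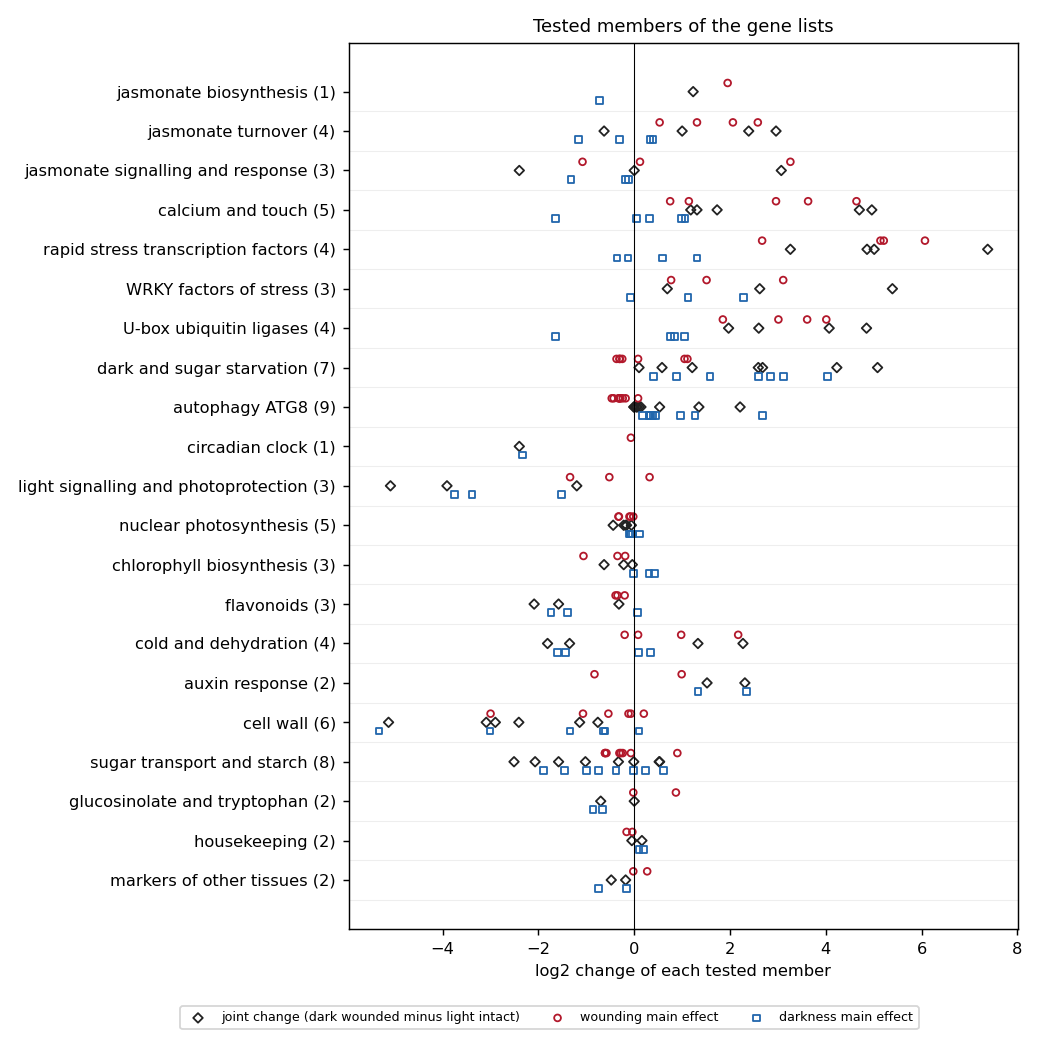
Joint change (diamonds), wounding main effect (circles) and darkness main effect (squares) in log2 for each tested member of 21 gene lists, with the number tested in brackets. Diamonds lie near the circles for rapid stress transcription factors (medians 4.93 and 5.17) and near the squares for dark and sugar starvation (medians 2.59 and 2.60), and for most ATG8 genes the circles lie below and the squares above 0.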

How the data were processed

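The 12 arrays carried 4 groups of 3 pooled rosette samples. The deposited log2 values come from GCRMA, per the submitters' processing notes, which give no version. They run from 1.46 to 15.85 over 22810 probe sets, with 64 controls and 0 missing values. No detection calls or counts are used here, so depth does not apply and the number of arrays limits precision (median SE of the joint change 0.15). Probe sets with log2 of at least 4 on at least 3 arrays were tested: 13567, of which 7275 had 1 annotated gene, 292 several and 6000 none, while 9179 were too dim. The edge of that filter separated a third-highest value of 4.002 from one of 3.999.

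Group means were fitted to all 12 arrays in limma 3.58.1 (R 4.3.3) with the replicate experiment as a block (residual df 6, prior df 3.4) and tested on simulated data. The series description says that each of the 3 experiments held all 4 treatments. Arrays with the same number deviated together (18 pairs, r 0.296 to 0.757 over probe sets, which are no replicates). For other pairs between groups r was -0.465 to -0.0676 (36 pairs). Deviations from a group mean cancel within the group, so these negative values follow from the positive ones and are no separate evidence. P-values reflect spread between pools. Alternatives changed the block, filter, scaling, arrays left out, eBayes trend and a 25S covariate.

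Genes were named from single-gene probe sets, the brightest per gene, through RefSeq names (77 symbols found no locus). The rule took the 12 largest joint rises and 12 falls with separate arrays. It added 8 genes per direction class by the smaller main effect, with the same sign in every experiment. Up to 5 departures each way that were also called for the joint change were added. From each list it took 3 called members, or the 2 brightest where none was called, and further list members are named to complete a list's count. The comparison, lists and rules were chosen with earlier results of these data known. Sequences and promoter motifs were not analysed here.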

Additional observations from a re-analysis of the deposited data

Results flagged for a closer look

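The wound effect of 5 probe sets differed between dark and light by the limma interaction test. For AT4G29610 the wound effect was smaller in the dark by 2.07 (-2.07 ± 0.16, adjusted p = 0.00288). It had 2.57, 2.77 and 2.37 in dark wounded and 2.43, 2.35 and 2.41 in dark intact samples, and 4.65, 4.83 and 4.51 in light wounded and 2.43, 2.47 and 2.35 in light intact samples. It passed the brightness filter through the light wounded samples, and its joint change was 0.15 ± 0.11. The difference was -1.62 for AT5G38700 and -1.68 (± 0.19, adjusted p = 0.0217) for a probe set with no single named gene, which averaged 11.76 in dark wounded, 11.10 in dark intact, 10.89 in light wounded and 8.56 in light intact samples. The difference was 1.63 for AT3G27540 and 1.87 for EXPB1. For AT5G38700 and AT4G29610 the intact samples lay below log2 4, so their wound effects start from levels that are only bounded. In all 3 experiments each of these differences had the same sign.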

How the results depend on the processing

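Without the replicate block, 2928 probe sets were called for wounding, 2 for the departure, 435 as lowered by both, 211 as raised by wounding and lowered by darkness, and 375 as the opposite. The numbers pair the arrays, so the block was kept. With the 25S reading as a covariate beside the block the counts were 2831 for wounding, 3678 for darkness and 0 for the departure, and by class 304 raised by both, 269 lowered by both, 191 raised by wounding and lowered by darkness, and 380 the opposite. That fit has fewer residual degrees of freedom. Without the brightness filter 2 departures were called, and after quantile normalization 3. Leaving out arrays or experiments gave 4521 to 6822 joint calls, 2850 to 4633 for wounding, 4796 to 6747 for darkness and 0 to 41 departures. The classes ranged over 414 to 792 raised by both, 413 to 987 lowered by both, 201 to 415 raised by wounding and lowered by darkness, and 360 to 819 the opposite. List members with a joint call numbered 50 to 54. The darkness main effect of GRX480 was -0.19 with all arrays and ranged from -0.50 to 0.41 when arrays or experiments were left out, with 0.41 without replicate experiment 1. The planned promoter motif count was not run. Values near log2 4 and near the top of the scale limit the size of a change that can be read.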

Other observations

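Transcripts of the plastid genome stood outside the broad fall. Of 67 tested probe sets with a single plastid gene, 1 was higher and 0 were lower for the joint change by limma, with a median of 0.11 in dark wounded minus light intact samples. The medians of the nuclear chromosomes lay between -0.14 and -0.11. Each held 1052 to 1883 such probe sets, of which 209 to 400 were higher and 297 to 582 lower. Over all tested probe sets 19.6% were higher and 30.1% lower.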
